A study of Mus musculus with 45 samples.

Results

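Kidney tubules of female Pkd1KO mice were compared with those of female Pkd1KO+ciliaKO mice, in which cilia were removed together with polycystin-1. The comparison held 14 of the 45 libraries of the series, namely the 8 female mice whose labels give the Pkd1KO genotype and the 6 whose labels give the Pkd1KO+ciliaKO genotype. Each library came from the kidney of 1 mouse. The genes tested were the 15968 protein-coding genes that the authors kept for female mice. The 7 female noncystic libraries were used only to show the level of a gene in mice with an intact *Pkd1* allele, and male mice only where stated.

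Pkd1KO mice carried *Pkd1* fl/fl, and Pkd1KO+ciliaKO mice carried *Pkd1* fl/fl and *Kif3a* fl/fl. Noncystic mice carried *Pkd1* fl/+. Every mouse of these groups also had 1 copy each of R26 Rpl10a, Pax8 rtTA and TetO Cre, was given doxycycline by mouth from P28 to P42, and was killed at 7 weeks of age. Doxycycline activates rtTA in cells that express it from the *Pax8* promoter, which is active along the nephron epithelium, and rtTA then switches on Cre. Cre deletes the floxed alleles and switches on an EGFP-tagged L10a ribosomal protein in the same cells, so that translating ribosome affinity purification (TRAP) recovers mRNA bound to the ribosomes of those cells from a whole kidney. In bulk libraries of this kind, fewer cells of a type and less RNA per cell cannot be told apart.

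Polycystin-1, the product of *Pkd1*, acts with polycystin-2 in the membrane of the primary cilium, the sensory organelle on the apical side of a tubule cell. KIF3A is the motor subunit of heterotrimeric kinesin-2, which carries intraflagellar transport (IFT) trains outwards along the cilium, and cells that lack it lose their cilia. Tubules that lose polycystin-1 while keeping their cilia form cysts, whereas loss of both slows cyst growth. The comparison asks which genes have another level in *Pkd1*-deleted tubules when cilia are removed as well.

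The 14 libraries held 80874556 to 132958186 counted fragments each (median 103881746), and 98.7% to 99.1% of them fell on the tested genes. At this depth, 3 counts correspond to 0.0226 to 0.0371 CPM, a count relative to the total of its library, a limit that covers counting error only. Levels are TMM-normalized CPM and are given as the lowest, median and highest of a group. CPM are not scaled by gene length. A log2 fold change is Pkd1KO minus Pkd1KO+ciliaKO throughout, with its standard error (SE), and a gene was called when its p in edgeR's quasi-likelihood test, adjusted by Benjamini and Hochberg, did not exceed 0.05. Each mouse was taken as a replicate, and litters are not given.

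*Kif3a* checks the labels (ENSMUSG00000018395.19, chr11:53567379-53601967 of GRCm38, a protein-coding gene). Its level was 24.4, 27.5 and 29.3 CPM in the Pkd1KO mice. It was 6.86 to 8.83 CPM in 5 of the Pkd1KO+ciliaKO mice, but 21.6 CPM in the library labelled Pkd1KO+ciliaKO replicate 6. The log2 fold change was 1.44 (SE 0.22, adjusted p = 0.0012) with all 14 libraries and 1.81 (adjusted p = 5.3e-09) without replicate 6. Replicate 6 thus goes against its label. The total counts of called genes are given with and without it, those of gene lists and the values of single genes only where stated. Among the noncystic libraries the one labelled replicate 5 also goes against its label, with 7.02 CPM of *Kif3a*. *Pkd1* (chr17:24549834-24596508) checks nothing, because Cre removes only some of its exons and the counts cover the whole gene. Its level ran from 34.1 to 63.1 CPM in Pkd1KO and from 51.3 to 67.1 CPM in Pkd1KO+ciliaKO mice (log2 fold change −0.31, adjusted p = 0.14).

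**Figure D1:**
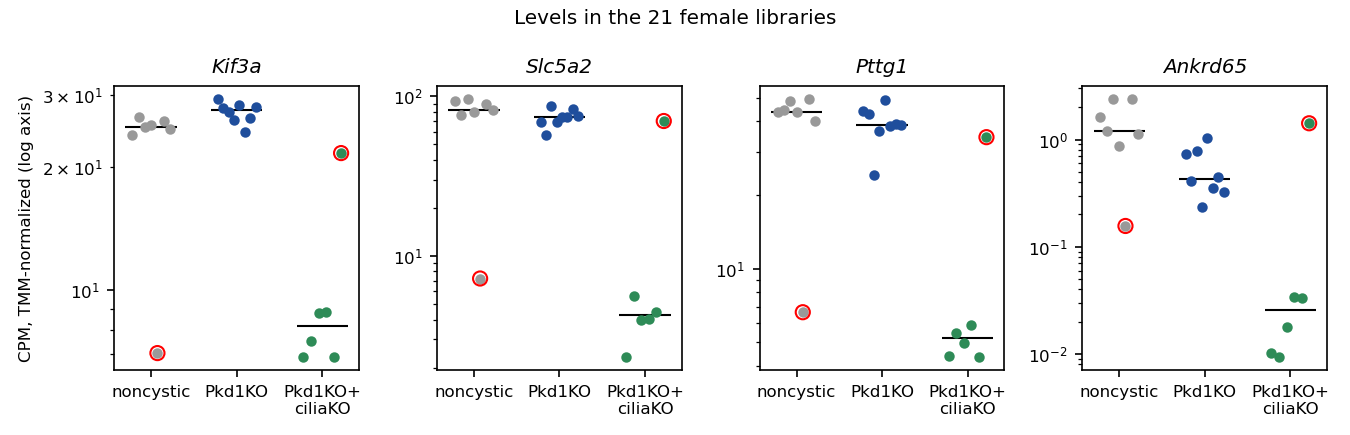
TMM-normalized CPM (log axis) of *Kif3a*, *Slc5a2*, *Pttg1* and *Ankrd65* in the 7 noncystic, 8 Pkd1KO and 6 Pkd1KO+ciliaKO female libraries; each point is 1 mouse and each line a group's median. The circled points are the library labelled Pkd1KO+ciliaKO replicate 6, which lies with the Pkd1KO libraries or above them for *Slc5a2* (70.04 CPM), *Pttg1* (34.5 CPM) and *Ankrd65* (1.419 CPM), and the library labelled noncystic replicate 5, which lies below the other noncystic libraries.

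Replicate 6 differed from the 5 other Pkd1KO+ciliaKO libraries in a gene-dependent way. *Slc5a2*, the sodium-glucose cotransporter SGLT2 of the early proximal tubule, stood at 57.5, 74.3 and 87.1 CPM in Pkd1KO mice and at 2.33 to 5.62 CPM in 5 Pkd1KO+ciliaKO mice. In replicate 6 it was 70.04 CPM, inside the Pkd1KO range. Its log2 fold change was 2.30 (adjusted p = 0.038) with replicate 6 and 4.18 (adjusted p = 5.3e-09) without it, and the call with all libraries was lost when any of 10 other mice was left out instead. *Pttg1*, which encodes securin and was picked after its values were seen as one of the genes with the smallest p in males, showed the same layout, with 24.2, 38.9 and 48.8 CPM in Pkd1KO, 4.35 to 5.89 CPM in 5 Pkd1KO+ciliaKO libraries and 34.5 CPM in replicate 6. In contrast, replicate 6 had 224 CPM of *Glis2*, within the 198 to 271 CPM of the 5 other libraries of its group.

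The layout was counted over genes chosen without replicate 6, from the male calls and the 13 other female libraries of the comparison. Of the 603 genes called in males, 596 were tested in females, and for 169 of these the 8 Pkd1KO and 5 other Pkd1KO+ciliaKO female libraries did not overlap and differed in the male direction. Over all tested genes, these 13 libraries did not overlap for 677, or 4.24%. Replicate 6 lay within or beyond the Pkd1KO range for 55 of the 169 genes, within or beyond the range of the 5 Pkd1KO+ciliaKO libraries for 69, and between the ranges for 45. The median size of the male log2 fold change was 1.09 for the 55 genes and 0.57 for the 69. For 52 of the 55 genes the median of the 6 other noncystic libraries was on the Pkd1KO side too, and noncystic replicate 5 was on the Pkd1KO+ciliaKO side for 28. For the 69 genes, the noncystic median was on the Pkd1KO+ciliaKO side for 41. On the genes where replicate 6 kept to its labelled group, noncystic mice mostly did as well, and the cause was not tested.

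With all 14 libraries, 1869 of 15968 genes were called (11.7%), of which 1126 were higher (7.05%) and 743 lower (4.65%) in Pkd1KO tubules. Without replicate 6 the number was 1661 (10.4%), with 1014 higher and 647 lower, and 1524 genes were called both ways with the same sign. The changes were mostly small. The median size of the log2 fold change among called genes was 0.46, and 302 genes had a size of at least 1, of which 183 were higher and 119 lower. The share of higher genes depends on the scale. The called genes were 60.3% higher by edgeR, whereas limma on log2(TPM + 1) called 2167 genes (13.6%), 584 of them higher and 1583 lower (27.0% higher). The median log2 fold change over all genes was −0.01 by edgeR and −0.07 on the TPM scale. None of the genes called by edgeR had the opposite sign on the TPM scale, and 1294 were called by both with the same sign. For groups of genes, the count on the TPM scale is given where it changes the balance of directions. Counts of called members are to be set against the 7.05% of all genes called higher and the 4.65% called lower. Counts of members above 0 are to be set against 7662 of 15968 genes.

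The genes with the firmest differences came from several functions. Higher in Pkd1KO were *Glis2*, a zinc finger transcription factor, *Cables2*, a binding partner of cyclin-dependent kinases, and *Gcsh*, the carrier protein of mitochondrial glycine cleavage. *Gcsh* stood at 241, 284 and 319 CPM in Pkd1KO and at 164, 179 and 195 CPM in Pkd1KO+ciliaKO mice (log2 fold change 0.67, SE 0.07, adjusted p = 5.6e-05). The chemokine gene *Ccl5* stood at 2.39, 4.9 and 6.2 CPM against 0.602, 1.04 and 1.48 CPM (log2 fold change 2.17, SE 0.22, adjusted p = 5.6e-05). The groups did not overlap for either gene. *Cep85*, which encodes a centrosome protein, was higher by 1.71 on the log2 scale and *Lrrc28* by 1.10, both without overlap. For both genes replicate 6 was the highest Pkd1KO+ciliaKO library, at 32.09 and 29.21 CPM. The 5 other libraries of its group reached at most 17.78 and 21.56 CPM. *Pam16*, which encodes a subunit of the mitochondrial import motor, was higher by 0.47, but it overlaps *Glis2* on the opposite strand (chr16:4616464-4624988), and since the strand setting of the counting is not given in the sources used here, reads of the 2 genes cannot be told apart with certainty.

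Lower in Pkd1KO were *Spns2*, *Ntn4*, *Mgat4a* and *Pla2g5*. *Mgat4a*, a glycosyltransferase that branches N-glycans, stood at 44.3, 48.3 and 53.5 CPM in Pkd1KO and at 67.3, 79.8 and 83.6 CPM in Pkd1KO+ciliaKO tubules (log2 fold change −0.67, SE 0.06, adjusted p = 1.3e-05). *Pla2g5*, a secreted phospholipase A2, stood at 7.23, 7.98 and 10.7 CPM against 15, 21.5 and 26.2 CPM (log2 fold change −1.36, SE 0.12, adjusted p = 1.3e-05). The groups did not overlap for either gene, and the noncystic medians of 71.4 and 17.9 CPM lay above the Pkd1KO range. Also lower without overlap were *Efna5*, an ephrin ligand (−0.58), *Tubgcp5*, of the gamma-tubulin ring complex (−0.48), and *Shroom4*, an actin-binding protein (−0.67). The transcription factor gene *Npas3* (−2.29) and the beta-defensin gene *Defb42* (−2.20) were lower without overlap too. Noncystic mice other than replicate 5 overlapped Pkd1KO for *Efna5* (14.62 to 17.66 against 12.48 to 16.25 CPM). They did so for *Tubgcp5* (13.98 to 17.17 against 14.44 to 16.1 CPM) and *Npas3* (0.2929 to 0.5993 against 0.2483 to 0.6274 CPM). For *Shroom4* all noncystic mice (149.1 to 199 CPM) lay above Pkd1KO (at most 121.6 CPM). For *Defb42* they ran from 1.238 to 3.004 CPM, against at most 1.259 CPM in Pkd1KO.

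Some of the largest fold changes belonged to genes read in only some mice of a group. *Spink6*, a serine protease inhibitor gene, had 554 to 3290 counts in 7 Pkd1KO libraries and 0 counts in Pkd1KO replicate 6, while the Pkd1KO+ciliaKO libraries had 0 to 5 counts. *Gm9008* had 245 to 386 counts in 6 Pkd1KO libraries and 1 and 3 counts in the other 2, and at most 2 counts in any Pkd1KO+ciliaKO library. *Capn11*, a calpain gene, showed the opposite, with 82 to 529 counts in 5 Pkd1KO+ciliaKO libraries, 0 in replicate 3 and at most 2 counts in Pkd1KO. All 3 genes passed the test, but within a group the libraries fell into separate levels, so a mean fold change does not describe them. *Serpina6*, which encodes corticosteroid-binding globulin, was read in every library, at 14.8, 56.9 and 576 CPM in Pkd1KO and at 1.63, 4.42 and 5.33 CPM in Pkd1KO+ciliaKO mice (log2 fold change 5.00, SE 0.85, adjusted p = 0.0023). *Fgl1*, a fibrinogen-like secreted protein gene, was lower in Pkd1KO (0.0414, 0.12 and 1.28 CPM against 1.62, 3.12 and 3.74 CPM, adjusted p = 0.0038).

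The 12 genes that the study itself named all passed the test, with 8 higher and 4 lower in Pkd1KO. The study chose them on these samples, so their count is not independent evidence of their direction. *Glis2* (ENSMUSG00000014303.13, chr16:4594713-4624924), whose loss causes nephronophthisis in humans, stood at 389.5, 448 and 543 CPM in Pkd1KO and at 198, 231 and 271 CPM in Pkd1KO+ciliaKO mice, a 1.99-fold difference (log2 fold change 0.99, SE 0.09, adjusted p = 1.3e-05). The lowest Pkd1KO library was above the highest Pkd1KO+ciliaKO library. *Pkd2*, which encodes polycystin-2, stood at 435, 489 and 574 CPM against 277, 329 and 360.1 CPM (log2 fold change 0.61, SE 0.08, adjusted p = 0.00044), and *Cables2* at 39.1, 44.9 and 55.2 CPM against 22.3, 25.1 and 27.1 CPM (log2 fold change 0.89, SE 0.07, adjusted p = 1.3e-05). Neither gene's groups overlapped.

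*Anks3*, which binds nephronophthisis proteins, stood at 48.99, 54.1 and 57.9 CPM in Pkd1KO against 32.8, 39.9 and 40.9 CPM (log2 fold change 0.49, adjusted p = 0.00025). *Chpf*, a chondroitin polymerizing factor, stood at 25.6, 29.8 and 40.1 CPM against 14.6, 17.9 and 20.2 CPM (log2 fold change 0.80, adjusted p = 0.00052). The small GTPase gene *Rab23*, a negative regulator of hedgehog signalling, stood at 23.1, 29.1 and 32.2 CPM against 20.1, 21.1 and 23.2 CPM (log2 fold change 0.43, adjusted p = 0.0018), and here the ends of the groups overlapped. *Tspan5* (0.63) and *Ptpdc1* (0.44) were also higher.

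Among the lower genes, *Spns2*, the sphingosine-1-phosphate exporter, stood at 11.7, 17.6 and 26.5 CPM in Pkd1KO and at 47.1, 75.1 and 102 CPM in Pkd1KO+ciliaKO mice (log2 fold change −2.02, SE 0.18, adjusted p = 1.3e-05). The basement membrane protein gene *Ntn4* stood at 18.7, 22.2 and 27 CPM against 36.9, 44.8 and 65.1 CPM (log2 fold change −1.08, SE 0.11, adjusted p = 5.8e-05), and *Lad1*, an anchoring filament protein gene, at 49.95, 68.6 and 75.3 CPM against 99.4, 138 and 231 CPM (log2 fold change −1.16, SE 0.16, adjusted p = 0.00056). The groups did not overlap for any of the 3 genes, and the highest Pkd1KO+ciliaKO value of each was that of replicate 6. Without it the values were −1.91, −0.97 and −0.97. *Tmem67*, a transition zone gene, was lower by the smallest margin (−0.34, adjusted p = 0.038) and lost its call without replicate 6 (adjusted p = 0.084).

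**Figure D2:**
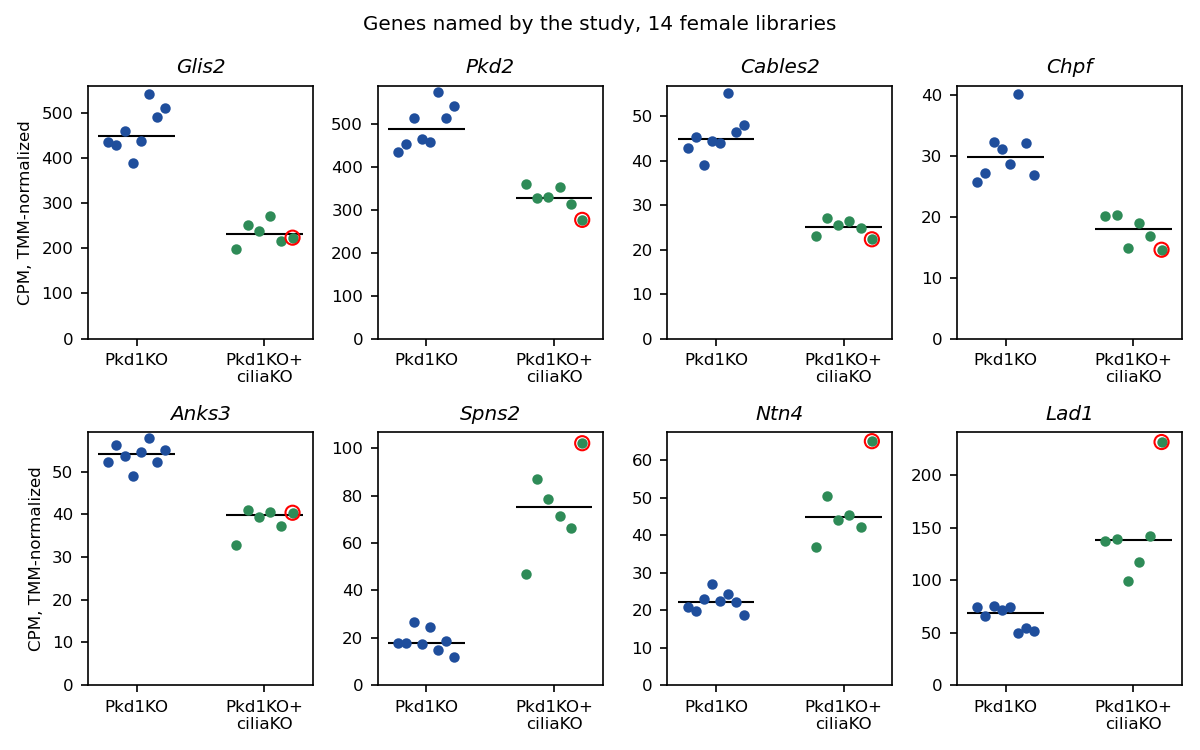
TMM-normalized CPM of 8 genes that the study named, in the 8 Pkd1KO and 6 Pkd1KO+ciliaKO female libraries; points are mice, lines are medians, each axis starts at 0 and the circled point is the library labelled Pkd1KO+ciliaKO replicate 6. The groups do not overlap in any of the 8 panels, and replicate 6 is the highest library of its group for *Spns2*, *Ntn4* and *Lad1*.

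Genes of the ciliary machinery are given by complex, beside the 7.05% of all genes called higher and the 4.65% called lower. Of 5 kinesin-2 genes, *Kif3a* was higher and *Kif17* lower in Pkd1KO. *Kif17*, the homodimeric kinesin-2, stood at 0.259, 0.429 and 0.569 CPM in Pkd1KO against 0.811, 1.39 and 1.94 CPM (log2 fold change −1.78, SE 0.22, adjusted p = 0.00041), without overlap. The partners of KIF3A differed little, with log2 fold changes of −0.02 (adjusted p = 0.88) for *Kif3b* and −0.09 (adjusted p = 0.29) for *Kifap3*. Of 18 genes of the IFT-B complex, which carries cargo into the cilium, 2 were higher and none lower, but on the TPM scale 1 was higher and 1 lower. *Ift27* was one of them, at 19.4, 21.2 and 24.6 CPM against 14.1, 15.4 and 18.4 CPM (log2 fold change 0.45, SE 0.08, adjusted p = 0.0027). None of 12 IFT-A and dynein-2 genes, which return cargo, was called by edgeR or on the TPM scale. Of 13 BBSome genes only *Bbs10* was called (−0.44, adjusted p = 0.049), and without replicate 6 it was not. Of 19 genes of ciliary membrane trafficking 4 were higher, *Ift27* and *Rab23* among them, and none lower, against 3 and 1 on the TPM scale.

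The list of transition zone and nephronophthisis genes joins genes of the gate at the base of the cilium to others, such as the transcription factor gene *Glis2*. It had 6 members higher and 1 lower of 32, against 4 and 3 on the TPM scale and 4 and 0 without replicate 6. Among the called members, *Glis2*, *Anks3* and *Tmem67* are genes that the study chose on these samples. Besides *Glis2* and *Anks3*, *Rpgrip1* was higher at 1.43, 1.94 and 2.3 CPM against 0.316, 0.53 and 1.35 CPM (log2 fold change 1.61, SE 0.28, adjusted p = 0.0023). Replicate 6 held the highest Pkd1KO+ciliaKO value, and without it the fold change was 1.98. *Sdccag8*, a centrosome protein gene of the same list, was higher by 0.45. Its level in replicate 6, 16.63 CPM, lay within the Pkd1KO range of 16.07 to 18.74 CPM. The 5 other Pkd1KO+ciliaKO libraries held 11.34 to 13.17 CPM. Of 23 genes of the hedgehog pathway and the Glis family, *Glis2*, *Shh*, the ligand, and *Smo*, the transducer, were higher and none was lower, although on the TPM scale 1 was higher and 1 lower, and *Shh* lost its call without replicate 6 (adjusted p = 0.073). The paralog *Glis3* did not pass the test (0.00, adjusted p = 0.97), and its levels ran from 223 to 273 CPM in Pkd1KO and from 210.5 to 279 CPM in Pkd1KO+ciliaKO mice. Of 20 genes of polycystic kidney and liver disease, *Pkd2* and *Dnajb11*, a chaperone gene, were higher and none lower, and without replicate 6 there were 3 higher and 1 lower.

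Nearly all cell cycle genes lay above 0. Of 35 S phase genes, 34 had a log2 fold change above 0 and 5 were called, all higher, where 7.05% of all genes were called higher. Over all genes, 7662 of 15968 lay above 0. The median of the S phase genes was 0.31, against −0.01 over all genes, and without replicate 6 only 2 were called. *Mcm6*, a subunit of the replicative helicase, stood at 46.4, 56.0 and 72.1 CPM in Pkd1KO against 22.5, 33.6 and 38.9 CPM (log2 fold change 0.84, SE 0.12, adjusted p = 0.00091), without overlap. Of 34 G2/M genes, 32 lay above 0, with a median of 0.31, and 2 were called. These were *Ect2*, a cytokinesis factor (1.15, adjusted p = 0.0018), and *Ube2c*, a ubiquitin conjugating enzyme of the anaphase promoting complex (1.16, adjusted p = 0.0028). The proliferation marker *Mki67* ran from 21.1 to 45.6 CPM in Pkd1KO and from 16.2 to 50.8 CPM in Pkd1KO+ciliaKO mice (log2 fold change 0.32, adjusted p = 0.35).

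Of 24 genes of antigen presentation 6 were higher in Pkd1KO (5 on the TPM scale) and none lower. Over all genes 7.05% were called higher and 4.65% lower. In all 23 antigen presentation genes lay above 0, against 7662 of 15968 genes, with a median of 0.39. *B2m*, the light chain of MHC class I, stood at 158, 185 and 269 CPM against 108, 118 and 140 CPM (log2 fold change 0.74, SE 0.11, adjusted p = 0.00091), without overlap. The class I genes *H2-T23* (0.92), *H2-Q7* (0.92) and *H2-K1* (0.50) were higher too. These are members of a gene family of similar sequence, and reads could be split between them. Of 26 complement and chemokine genes, 6 were higher and none lower, but on the TPM scale 2 were higher and 1 lower. *Cxcl10*, an interferon-induced chemokine gene, was higher by 0.95 (SE 0.15, adjusted p = 0.0014). Of 26 interferon-stimulated genes 2 were higher and 2 lower.

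Markers of immune cells were examined beside these genes. Of 23 macrophage and dendritic cell genes only *Csf1r* was called, at 54.2, 77.8 and 109.5 CPM against 31.7, 47.6 and 54.9 CPM (log2 fold change 0.78, adjusted p = 0.0058). The summed level of the list ran from 189 to 393 CPM in Pkd1KO and from 132 to 253 CPM in Pkd1KO+ciliaKO mice. However, 12 of the 23 genes lay above 0, with a median of 0.01. The macrophage markers *Adgre1*, *C1qa* and *Cd68* had lower medians in Pkd1KO on the TPM scale. These were 1.70, 11.3 and 2.52 TPM, against 2.39, 12.3 and 2.74 TPM in Pkd1KO+ciliaKO mice. None of 16 T and B cell genes was called, and their summed level ran from 4.33 to 7.57 CPM against 3.39 to 6.22 CPM. Of 8 mast cell and granulocyte genes 4 lay above 0, and only *Ms4a2* was called, higher in Pkd1KO (1.80, adjusted p = 0.0088). The mast cell marker *Cpa3* was not called. It reached at most 0.0349 CPM in Pkd1KO and 0.091 CPM in Pkd1KO+ciliaKO mice, close to the level of 3 counts. The summed level of the list, most of it *Hdc* and *Gata2*, was 139, 177 and 588 CPM against 121, 136 and 151 CPM. The highest value is that of Pkd1KO replicate 4, of which *Hdc*, histidine decarboxylase, made up 497 CPM, and *Hdc* itself did not pass the test (1.88, adjusted p = 0.077). The part of immune cells in the difference of antigen presentation genes was not tested.

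Of 24 amino acid and phosphate transporters, 8 were higher and 2 lower in Pkd1KO, but on the TPM scale 4 were higher and 6 lower. Over all genes 7.05% were called higher and 4.65% lower. *Slc6a18*, a neutral amino acid transporter of the brush border, stood at 399, 615 and 874 CPM against 264, 319.7 and 401 CPM (log2 fold change 1.00, SE 0.18, adjusted p = 0.0028), so that the lowest Pkd1KO mouse barely met the highest Pkd1KO+ciliaKO mouse. *Slc6a20a*, an imino acid transporter gene, was higher by 1.57 without overlap. Of 25 organic ion transporters, which move anions, cations and drugs across the tubule cell, 7 were higher (4 on the TPM scale) and none lower. The phosphate transporter *Slc34a1* (−0.11, adjusted p = 0.60) and the endocytic receptor *Lrp2* (0.29, adjusted p = 0.19) did not pass the test. Of 15 sodium-glucose and glucose transporters 4 were higher and 1 lower (2 and 2 on the TPM scale), and of 23 proximal tubule marker genes, *Slc5a2*, *Slc34a1* and *Lrp2* included, 6 were higher and 1 lower.

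Genes that are higher in female than in male proximal tubules were mostly higher in Pkd1KO. Of 11, 6 were called, all higher (5 on the TPM scale), where 7.05% of all genes were called higher, and the median was 1.12. *Slc7a12*, an amino acid transporter, stood at 154, 355 and 507 CPM against 73.3, 151 and 267 CPM (log2 fold change 1.12, SE 0.29, adjusted p = 0.021), with overlap, and lost its call when Pkd1KO+ciliaKO replicate 4 was left out (adjusted p = 0.052). *Slc22a19* (1.19), *Gm4450* (1.12) and *Abcc3*, an export pump gene (1.11), were higher. *Slco1a6*, an organic anion transporter gene, was higher by 1.12 with overlap, and lost its call when any of 9 mice was left out. Its overlap came from replicate 6 alone, at 166.4 CPM. The 5 other Pkd1KO+ciliaKO libraries held 17.4 to 106.8 CPM, below the lowest Pkd1KO library at 111.5 CPM. Of 19 genes that are higher in male proximal tubules, 5 were called, all higher, with a median of 0.39, and on the TPM scale 5 were higher and 2 lower. Among them was *Kap*, the androgen-regulated kidney protein, at 5170, 9640 and 13460 CPM against 2334, 3708 and 6826 CPM (log2 fold change 1.21, SE 0.24, adjusted p = 0.0058). The 6826 CPM was that of replicate 6, and the 5 other Pkd1KO+ciliaKO libraries reached at most 4873 CPM. *Odc1*, the first enzyme of polyamine synthesis, was higher by 0.79. Both kinds of sex-biased gene thus had called members higher in Pkd1KO females.

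Of 20 thick ascending limb genes, 6 were lower and 2 higher in Pkd1KO, with a median of −0.18. Over all genes 4.65% were called lower and 7.05% higher. *Slc12a1*, the NKCC2 cotransporter, stood at 936, 1080 and 1490 CPM against 1288, 1587 and 1877 CPM (log2 fold change −0.53, SE 0.11, adjusted p = 0.0062), with overlap through 1 high Pkd1KO library. *Tmem72* (−0.58), *Tmem207* (−0.62) and *Ppp1r1b* (−0.66) were lower, whereas *Umod*, uromodulin, did not pass the test (−0.31, adjusted p = 0.11). Of 18 distal convoluted tubule genes 4 were lower and none higher, and without replicate 6 the count was 2. *Pvalb*, parvalbumin, stood at 4.77, 8.19 and 13.2 CPM against 5.47, 23.5 and 62 CPM (log2 fold change −1.68, adjusted p = 0.032), a wide spread within Pkd1KO+ciliaKO mice, and its call was lost when any of 5 mice was left out. Of 21 intercalated cell genes 1 was lower (2 without replicate 6), and none of 20 principal cell genes was called (1 lower without replicate 6). The medians were −0.17 for distal convoluted tubule, −0.24 for intercalated cell and −0.02 for principal cell genes. Only 4 of the 21 intercalated cell genes lay above 0.

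**Figure D3:**
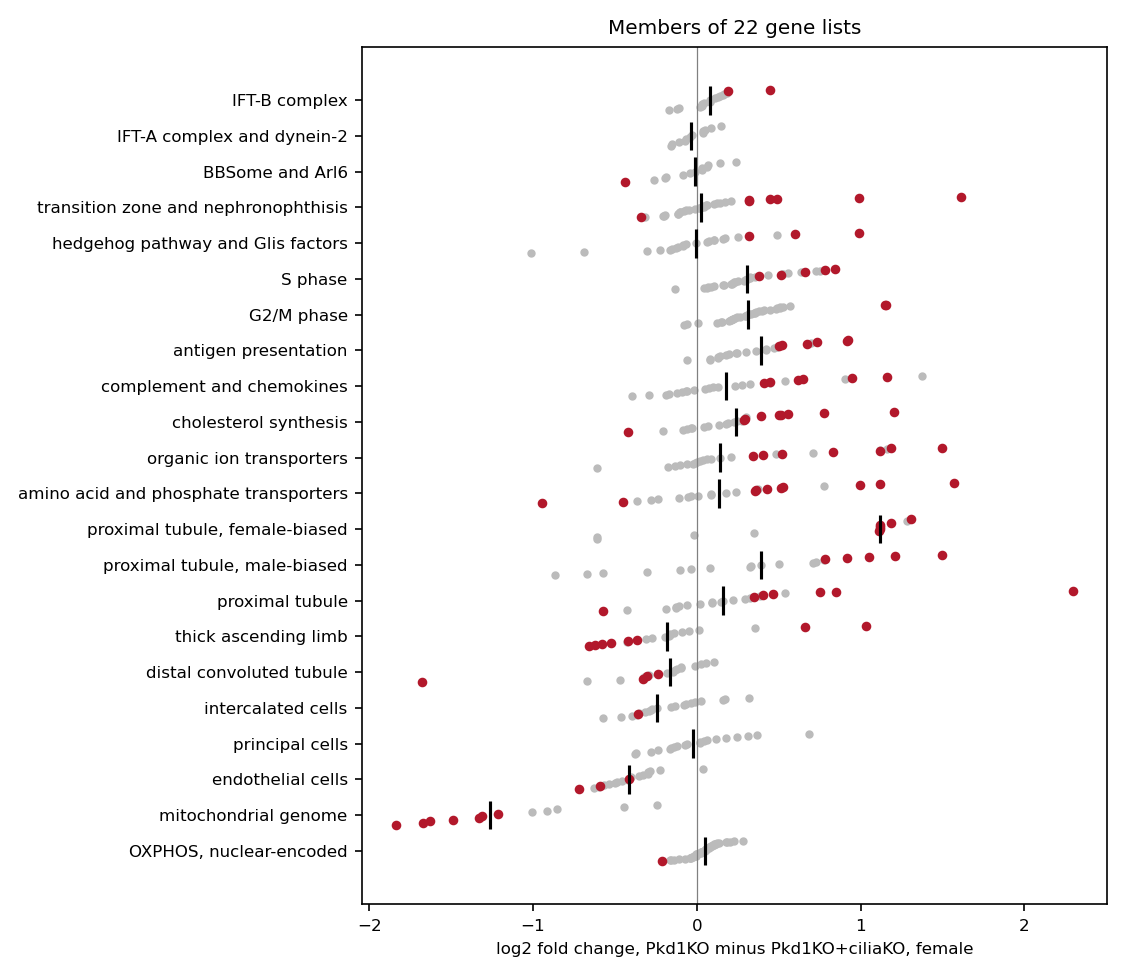
Log2 fold change (Pkd1KO minus Pkd1KO+ciliaKO, female) of the tested members of 22 gene lists, 1 point per gene; red points passed the test, grey points did not, and the black line is the median of a list. The medians are 1.12 for the female-biased proximal tubule genes, 0.39 for antigen presentation, −0.42 for endothelial cells and −1.26 for the mitochondrial genome, against −0.01 over all genes.

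Cholesterol synthesis genes and their targets of the same regulation were higher in Pkd1KO for 8 of 24 members and lower for 1, with a median of 0.24, while on the TPM scale 3 were higher and 2 lower. The counts of this paragraph stand beside 7.05% of all genes called higher and 4.65% called lower. *Cyp51*, lanosterol demethylase, stood at 193, 282 and 379 CPM against 82.8, 184 and 209 CPM (log2 fold change 0.77, SE 0.19, adjusted p = 0.018), with overlap. *Mvd*, an enzyme of the mevalonate pathway, was higher by 0.50. Of 29 genes of the unfolded protein and amino acid stress response 3 were higher and none lower. Among them was *Phgdh*, the first enzyme of serine synthesis, at 42.2, 45.4 and 49.7 CPM against 26.2, 30.9 and 34.6 CPM (log2 fold change 0.57, SE 0.07, adjusted p = 0.00029), without overlap. Of 31 chondroitin and heparan sulfate synthesis genes 6 were higher and 3 lower, and on the TPM scale 5 were higher and 5 lower. Of 39 fatty acid oxidation genes 2 were higher, including *Acadm*, medium-chain acyl-CoA dehydrogenase (0.97, adjusted p = 0.0047), and 2 lower, against 2 and 8 on the TPM scale. Of 23 kidney cytochrome P450 genes 3 were higher, among them *Cyp4f14* (1.90, adjusted p = 0.0053), and none lower.

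Pathways often studied in cystic kidneys are given as counts, to be set against the 11.7% of all genes that were called. Of 34 genes of tubule injury and dedifferentiation, 6 were higher and 1 lower in Pkd1KO, but 2 and 3 on the TPM scale. *Cdh6*, a cadherin of the developing tubule, was higher by 0.42 without overlap, and *Cd24a*, a surface marker of immature tubule cells, was lower (−0.40). Of 14 genes of EGF ligands and ErbB receptors only *Erbb4* was called (−0.45, adjusted p = 0.0025). Of 20 targets of YAP and TEAD, *Lgals1*, a galectin, was higher (0.95) and *Nuak2*, a kinase, lower (−1.11), with 2 higher and 1 lower in all (1 and 1 on the TPM scale). Wnt genes gave 2 higher and 3 lower of 31, Notch genes 2 and 1 of 21 (1 and 1 on the TPM scale) with *Notch2* at 0.37, and TGF-beta and BMP genes 2 and 2 of 30 (1 and 3 on the TPM scale) with *Id1*, a BMP target, at 1.05.

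Of 28 genes of cAMP synthesis and breakdown, 2 were higher and 3 lower, among them the phosphodiesterase gene *Pde4d* (0.60) and the anchoring protein gene *Akap6* (−1.34). Of 42 basement membrane and integrin genes 3 were higher and 3 lower (0 and 4 on the TPM scale), with the laminin gene *Lama1* at −0.46. Of 26 regulators of mTORC1 1 was higher, *Mtor* itself (0.58, adjusted p = 0.011), and 2 lower. Of 30 nephron transcription factors 3 were higher and 5 lower (0 and 9 on the TPM scale), with *Mecom* at −0.38 and *Tfap2b*, a factor of the distal nephron, at −0.42. Of 30 genes of Nrf2 and glutathione defence 4 were higher, among them *Sod1*, superoxide dismutase (0.48), and 4 lower, among them *Gsta4*, a glutathione transferase (−0.48), against 2 and 5 on the TPM scale. None of 24 immediate early genes was called (1 lower without replicate 6).

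Of 12 messenger RNAs of the mitochondrial genome 7 were lower in Pkd1KO females and none higher, where 4.65% of all genes were called lower. All 12 had a log2 fold change below 0, with a median of −1.26. They are translated inside mitochondria by ribosomes that do not contain L10a. Their summed level was 290.4, 699 and 1656 CPM in Pkd1KO and 785, 1889 and 2682 CPM in Pkd1KO+ciliaKO mice, and 486, 928 and 2399 CPM in noncystic mice, so that the groups overlapped. *mt-Nd1*, a complex I subunit, stood at 32.6, 75.8 and 164 CPM against 94.7, 254 and 376 CPM (log2 fold change −1.67, SE 0.31, adjusted p = 0.0038), and *mt-Co1*, a complex IV subunit, at 123, 258 and 507 CPM against 322, 649 and 927 CPM (−1.22, adjusted p = 0.0084). Of 51 nuclear genes of oxidative phosphorylation only 1 was called, and none of 53 cytosolic ribosomal protein genes. In males none of the 12 mitochondrial mRNAs was called (median −0.23).

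**Figure D4:**
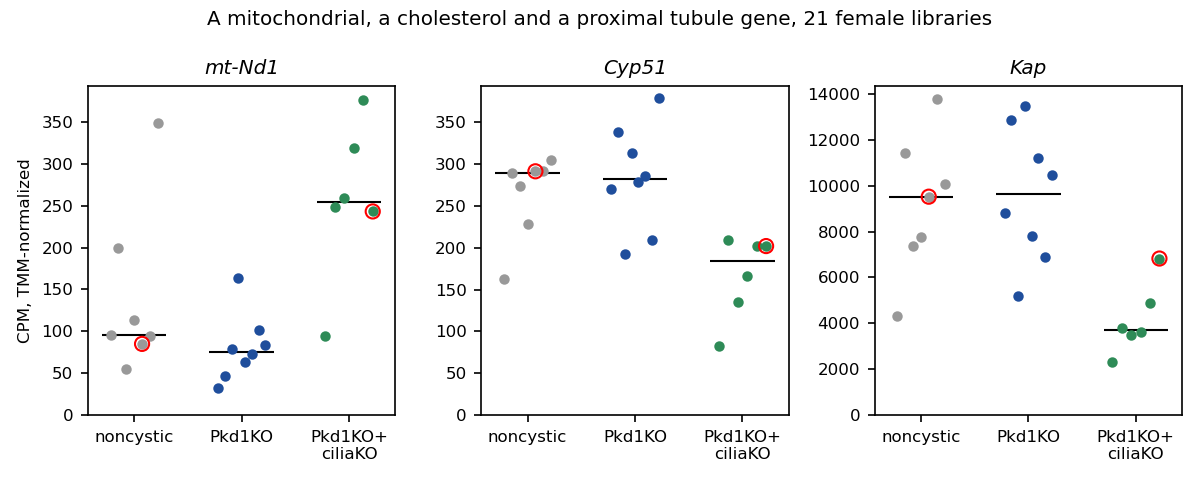
TMM-normalized CPM of *mt-Nd1*, *Cyp51* and *Kap* in the 7 noncystic, 8 Pkd1KO and 6 Pkd1KO+ciliaKO female libraries; points are mice, lines are medians, each axis starts at 0, and the circled points are the libraries labelled noncystic replicate 5 and Pkd1KO+ciliaKO replicate 6. For all 3 genes the Pkd1KO and Pkd1KO+ciliaKO ranges overlap, and the noncystic median is nearer to that of Pkd1KO. For *Kap* the overlap comes from replicate 6 alone (6826 CPM). The 5 other libraries of its group reach at most 4873 CPM, below the lowest Pkd1KO library (5170 CPM).

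The libraries held markers of all tubule segments and low levels of other cell types. On the deposited TPM scale, which takes gene length into account, medians over the 14 libraries were 925 TPM for *Lrp2* and 1031 TPM for *Slc34a1* of the proximal tubule, 2441 TPM for *Umod* of the thick ascending limb, 129 TPM for *Slc12a3* of the distal convoluted tubule and 724.5 TPM for *Aqp2* of principal cells. For cells outside the tubule they were 9.83 TPM for *Pecam1* of endothelium, 1.60 TPM for *Nphs1* of podocytes, 51.8 TPM for *Col1a1* of fibroblasts, 1.97 TPM for *Adgre1* of macrophages, 0.119 TPM for *Cd3e* of T cells and 2.14 TPM for *Hba-a1* of red cells. Endothelial genes lay below 0 for 19 of 20, with a median of −0.42 and 3 called lower (6 on the TPM scale), among them *Ehd3* at 18.4, 24.4 and 31.2 CPM against 26.6, 40.3 and 55.4 CPM (adjusted p = 0.0053). Over all genes 4.65% were called lower. The summed level of the endothelial genes was 162, 251 and 383 CPM in Pkd1KO and 278, 337 and 509 CPM in Pkd1KO+ciliaKO mice. In males 16 of the 20 endothelial genes lay above 0, with a median of 0.13, and none was called. None of 20 fibroblast and pericyte, 14 podocyte or 7 red blood cell genes was called.

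Genes near the floxed *Kif3a* locus were examined by themselves. Of 114 tested genes within 5 Mb, 14 were called (12.3%, against 11.7% of all genes), 11 higher and 3 lower, and 13 without replicate 6. In males 8 of 114 were called, where 3.77% of all genes were called. These counts include the deleted gene *Kif3a* itself, which is among the called and higher genes. *Gm2a*, which encodes the GM2 activator of ganglioside breakdown, stood at 260.3, 354 and 452 CPM against 188, 224 and 256 CPM (log2 fold change 0.69, SE 0.12, adjusted p = 0.0028). *Cdkn2aipnl* (0.27), *Nhp2* (0.48) and *Atox1* (0.47) were also higher. For *Atox1*, replicate 6 (119.9 CPM) lay within the Pkd1KO range (115.5 to 159.9 CPM). The 5 other Pkd1KO+ciliaKO libraries held 78.88 to 100.2 CPM.

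The same contrast in male mice, 7 Pkd1KO against 9 Pkd1KO+ciliaKO, called 603 of 15991 genes (3.77%), 318 higher and 285 lower. Of the genes called in females, 1858 were tested in males, 1686 had the same sign there and 311 were called with the same sign, 169 higher and 142 lower. These are 16.6% of the female and 51.6% of the male calls. The share of equal signs over all genes tested in both sexes was not counted. *Glis2* was higher by 0.80, *Cables2* by 0.86 and *Pkd2* by 0.55, and *Spns2* was lower (−1.71), in males. Thick ascending limb genes were lower for 8 of 19 tested in males and antigen presentation genes higher for 5 of 24. Female-biased proximal tubule genes had a median of −0.12 in males with 1 called, lower.

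The difference of the contrast between the sexes was tested over the 30 mice as the interaction of sex and genotype. It was called for 20 of 15828 genes (0.126%), 15 with the higher value in females, and 14 were called, all among the 20, without replicate 6. At an unadjusted p under 0.05 there were 1143. In 16 of the 20 the fold changes had opposite signs, and in 9 of these the gene was called in each sex. *Hsd17b14*, a steroid dehydrogenase gene, stood at 21.6, 35.4 and 48.4 CPM in female Pkd1KO against 8.14, 10.3 and 17 CPM in Pkd1KO+ciliaKO mice (log2 fold change 1.67, adjusted p = 0.00056), and at 3.79, 4.57 and 7.14 CPM against 6.20, 7.61 and 11.9 CPM in males (−0.73, adjusted p = 0.011). It was thus higher in Pkd1KO females and lower in Pkd1KO males.

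*Spidr*, a DNA repair scaffold gene, stood at 38.8, 61.6 and 87.5 CPM against 16.2, 21.9 and 32.4 CPM in females (log2 fold change 1.417, adjusted p = 0.00047) and differed by −0.03 in males (adjusted p = 0.85). *L3mbtl4* was higher by 1.90 in females (0.505, 0.935 and 2.51 CPM against 0.0714, 0.324 and 0.588 CPM) and lower in males (−2.13, adjusted p = 0.00061). *Enox1*, a cell surface oxidase gene, was higher in Pkd1KO females at 3.64, 5.72 and 8.55 CPM against 3.16, 3.67 and 4.3 CPM (0.66) and lower in males (−0.79). *Ankrd65* rests on replicate 6. Its female log2 fold change was 1.12 (adjusted p = 0.43) with that library at 1.419 CPM and 4.58 (adjusted p = 8.7e-05) without it, and the sex difference then lost its call (adjusted p = 0.31). For *Slc5a2* the sex difference was −1.91 with replicate 6 and −0.03 without it, and was not called in either fit.

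**Figure D5:**
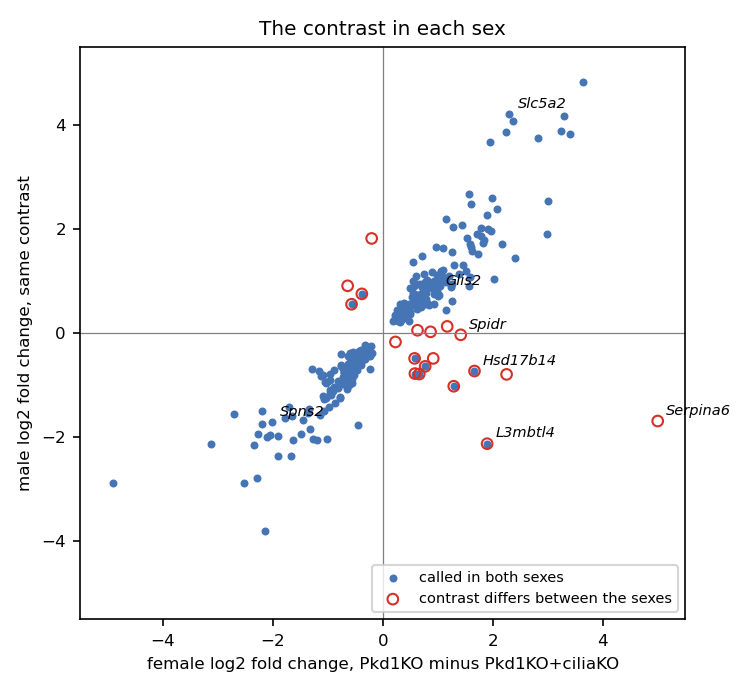
Log2 fold change (Pkd1KO minus Pkd1KO+ciliaKO) in females against that in males, 1 point per gene; filled points are the 320 genes called in both sexes and open red circles the 20 genes whose contrast differs between the sexes by the interaction test. Of the genes called in both, 311 lie in the quadrants of equal sign; 3 filled points and 1 circle lie outside the axes at 5.5.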

How the data were processed

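TRAP RNASeq counts of 45 mice were used, of which 14 form the comparison. The authors deposited raw counts for 55401 genes: reads were trimmed with fastp 0.20.0, aligned with STAR 2.7.9 to GRCm38 with GENCODE vM25 and counted with featureCounts 2.0.0, per their methods and processing notes. The authors also deposited TPM values for each sex, of protein-coding genes that reached 6 counts in 20% of its mice, and these genes were tested. Columns of the tables were matched to samples by the labels.

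Counts were TMM-normalized and fitted with edgeR 4.0.16 (quasi-likelihood, R 4.3.3, adjusted p at most 0.05) for each sex and for the sex by genotype interaction; edgeR replaces the DESeq2 of the study. DESeq2 1.42.0, limma 3.58.1 and further alternatives were run, and the edgeR step was tested on simulated data. Coordinates and symbols come from GENCODE vM21, which gave 54821 genes the same position.

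Genes and the 60 gene lists were chosen with earlier results of these data known. Named genes are *Kif3a* and *Pkd1*, the genes the study named, the 10 smallest p in each direction, the 5 largest and 5 smallest fold changes, up to 5 called members of each list by smallest p and 2 not called by highest level, the 5 smallest p for the sex difference and for the *Kif3a* window, and cell type markers. *Pttg1* was named after its values were seen. Of 1311 list symbols 1272 were tested. Counts of no 2 libraries of a group agreed within sampling noise (43 pairs tested, chi-square over its degrees of freedom at least 51.8).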

Additional observations from a re-analysis of the deposited data

Results flagged for a closer look

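For 44 genes whose library values are given, each female group of 8 or 6 was examined for a library far from the rest, by the gap to its nearest neighbour divided by the range of the group. A library stood apart in 12 of 88 groups, and in 6 of the 12 it was the library labelled Pkd1KO+ciliaKO replicate 6. *Kif3a*, *Slc5a2*, *Pttg1* and *Ankrd65* are shown because of their level in that library, so the count is a description and no test. For that library the ratio was 0.867 for *Kif3a*, 0.951 for *Slc5a2*, 0.949 for *Pttg1*, 0.982 for *Ankrd65*, 0.678 for *Lad1* and 0.667 for *Hsd17b14*. In each case it was the highest library of its group, which for *Lad1* means farther from the Pkd1KO libraries and for the other 5 genes nearer to them.

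In Pkd1KO mice the highest library stood apart for *Serpina6* (replicate 4 at 576 CPM, ratio 0.816), *Pla2g5* (replicate 8, 0.612), *Fgl1* (replicate 3, 0.583), *Slc12a1* (replicate 3, 0.557) and *Chpf* (replicate 6, 0.541). *Spink6* in Pkd1KO+ciliaKO replicate 3 (ratio 0.629) rests on 5 counts.

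The contrast differed between the sexes by the interaction test for 20 genes, given here as the female minus the male log2 fold change. It was higher in females for *Hsd17b14* (2.40), *Spidr* (1.45), *L3mbtl4* (4.03), *Enox1* (1.45), *Lyplal1* (1.06), *Lrit3* (1.36), *Slc51b* (0.84), *Tle2* (1.41), *Prap1* (2.31), *Sox15* (3.045), *Serpina6* (6.72), *Acot7* (1.04), *Hao2* (1.40), *Farp2* (0.40) and *Gstm5* (0.57). It was lower in females for *Ankrd65* (−6.14), *Mtmr7* (−1.13), *Sorcs1* (−2.02), *2010003K11Rik* (−1.55) and *Reln* (−1.14). Without Pkd1KO+ciliaKO female replicate 6 the value for *Ankrd65* was −2.70 and the difference was no longer called.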

How the results depend on the processing

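The number of genes called, 1869, ranged from 1241 (without Pkd1KO+ciliaKO replicate 3) to 2084 when 1 mouse was left out, the higher genes from 701 (also without replicate 3) to 1220 and the lower genes from 492 (without Pkd1KO+ciliaKO replicate 4) to 864. On log2(TPM + 1), 584 genes were higher and 1583 lower, and voom with quality weights called 1167 lower. The replicate numbers do not pair the mice: same-numbered mice had correlated deviations of −0.305 to 0.161 and none correlated best with its own number. With the replicate number as a block 612 genes were called, 433 higher and 179 lower. In males DESeq2 called 1234 genes, and leaving out 1 mouse gave 403 to 630. The sex difference was called for 59 genes by DESeq2, 35 with all 45 mice and 10 (without Pkd1KO+ciliaKO female replicate 1) to 34 (without Pkd1KO female replicate 3) when 1 mouse was left out. DESeq2 called 2507 female genes, DESeq2 size factors 1851, filterByExpr 1802, no filter 1696 and 3 genotypes in one fit 2105. Of 359 named genes 213 were called, 150 of these kept their call without any 1 mouse, 63 lost it for at least 1, and 0 of the 359 changed sign while called. Causes were not tested. Reads carry no molecular identifiers, and the floor of 3 counts covers counting error only.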
